A study of Mus musculus with 7 samples.

Results

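Venular and high endothelial cells of the mesenteric lymph node (mLN) were identified among single cells by the transcripts they held. A cell was kept when between 1000 and 4600 genes were detected in it and mitochondrial genes supplied no more than 4.5% of its unique molecular identifiers (UMIs, each marking 1 captured RNA molecule). A kept cell was a member when it held at least 2 UMIs of the endothelial gene Pecam1, at least 3 UMIs summed over Ackr1, Selp, Sele, Chst4 and Fut7, and fewer than 2 UMIs summed over the lymphatic genes Prox1, Mmrn1 and Lyve1. The gate returned 253 of 13197 kept cells, out of 17692 in all, namely 35, 57, 51, 65 and 45 cells at the 5 ages from D0 to D300. They are called venular cells below. The other Pecam1 cells were divided into 1771 other blood endothelial cells, which held fewer than 3 UMIs of the venular genes, and 593 lymphatic-gated cells, which held 2 or more UMIs of the lymphatic genes.

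All cells came from mLNs of BALB/c mice kept under specific pathogen free (SPF) conditions, with no difference in genotype or treatment between groups. The nodes were resected at day 0, 10, 24, 56 or 300 and digested, cells without the blood cell antigen CD45 and without CD24 were sorted by FACS, and 3′ droplet libraries were sequenced. The labels list 7 samples, with 2 libraries each at D56 and D300, whereas the study's own legend gives 1 replicate for D300. Cell names in the table carried only the age and a running number, so the libraries of an age could not be told apart, shared cell barcodes could not be counted, and each age was treated as 1 sample. Whether a library held 1 mouse or pooled mice was not given in the sources used here.

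High endothelial venules are the postcapillary vessels through which naive lymphocytes enter lymph nodes. Their tall endothelial cells decorate mucin-like core proteins with sulfated and fucosylated sugars, together called peripheral node addressin (PNAd), which L-selectin on lymphocytes binds, and in gut-draining nodes they also show the mucosal addressin Madcam1, which binds integrin α4β7. Chemokines at the vessel wall then arrest the rolling cells, and lymphotoxin receptor signalling through NF-κB is known to keep these vessels in their differentiated state. Fut7 and Chst4 encode the fucosyl and sulfo transferases of PNAd, while Ackr1 (the atypical chemokine receptor DARC), Selp and Sele (P- and E-selectin) mark venules more widely.

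Glycam1, a secreted mucin that carries PNAd, Madcam1, and Ubd, a ubiquitin-like protein, were among the 10 named genes with the largest rise in venular cells. The 250 bases before the start of each are printed because NF-κB activity is the known control of this cell state. They are given 5′ to 3′ on the strand of the gene, from RefSeq on GRCm38.p6, with matches to the 10-letter NF-κB consensus on either strand in capitals. The windows lie at chr15:103565082-103565331 (Glycam1, minus strand), chr10:79664309-79664558 (Madcam1, plus strand) and chr17:37193642-37193891 (Ubd, plus strand).
Glycam1: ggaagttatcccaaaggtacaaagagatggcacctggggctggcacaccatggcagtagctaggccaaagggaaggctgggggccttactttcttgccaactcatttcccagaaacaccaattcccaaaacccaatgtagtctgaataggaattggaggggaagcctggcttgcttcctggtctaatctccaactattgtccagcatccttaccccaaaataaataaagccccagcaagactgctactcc
Madcam1: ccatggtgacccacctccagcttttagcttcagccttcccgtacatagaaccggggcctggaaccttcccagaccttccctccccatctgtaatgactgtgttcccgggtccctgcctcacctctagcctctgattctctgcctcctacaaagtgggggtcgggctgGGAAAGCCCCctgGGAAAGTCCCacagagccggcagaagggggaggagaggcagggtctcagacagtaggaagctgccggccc
Ubd: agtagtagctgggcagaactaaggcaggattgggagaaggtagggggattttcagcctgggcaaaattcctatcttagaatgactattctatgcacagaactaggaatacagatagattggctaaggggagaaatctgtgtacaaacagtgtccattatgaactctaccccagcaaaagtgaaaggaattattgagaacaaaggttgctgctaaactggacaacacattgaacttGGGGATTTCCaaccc
The Madcam1 window held 2 matches, the first at 83 to 74 bases before the start, and the Ubd window held 1, at 15 to 6 bases before the start. No match occurred in the Glycam1 window, and 2382 of 32851 promoters of this length (7.25%) held at least 1. A match describes letters in these windows and is not a binding site shown by these data.

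The members were chosen by the levels of 9 genes, and the values of the gate genes are given as a description. In venular cells Ackr1 stood at 678, 600, 1624, 1717 and 1300 CPM (UMI counts scaled to a common library total) from D0 to D300, Selp at 457, 203, 541, 737 and 594 CPM, and Sele between 28.4 and 43.3 CPM. Fut7 measured 195 CPM at D0 and 526 to 714 CPM at the later ages. Chst4 was the sparsest of the transferases at birth, with 2.87 CPM from 1 cell at D0, against 88.4, 296, 83.2 and 214 CPM at D10, D24, D56 and D300. Of the 253 members, 218 held an Ackr1 UMI, 172 a Fut7 UMI, 135 a Selp UMI, 65 a Chst4 UMI and 47 a Sele UMI. The median venular sum was 15 UMIs and the highest 138. Ackr1, Selp and Sele alone brought 213 cells past the limit, Chst4 and Fut7 alone 140, and 106 cells met both. At the threshold, 13 cells held exactly 3 UMIs and 49 blood endothelial cells held 2. Glycam1, which the gate did not read, measured 3629 CPM in the 13 cells just inside, 740 CPM in the 49 just outside and 51064 CPM in the 194 cells with a sum of 8 or more. Just inside against just outside, Madcam1 was at 1137 against 421 CPM and the venous gene Vwf at 301 against 307 CPM. The capillary gene Gpihbp1 was higher just inside (602 against 257 CPM) and Rgcc lower (460 against 561 CPM). A further 38 kept cells with 3 or more venular UMIs lacked a Pecam1 UMI, 8 held 1, and 13 were left out for their lymphatic UMIs.

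The label was checked against markers outside the gate. The endothelial genes Cdh5, Tie1, Emcn, Egfl7, Esam and Cldn5 were all detected at every age. The fibroblastic list (Col1a1, Col1a2, Col3a1, Dcn, Pdgfra, Pdgfrb and Ccl19) summed to 673 to 2072 CPM in venular cells and 2088 to 5801 CPM in the other blood endothelial cells, and the perivascular list of 6 genes to 30.2 to 270 CPM against 301 to 663 CPM. Ptprc, which encodes CD45, and Cd3e were at 0 in venular cells of all 5 ages, but the 6 blood cell genes summed to 25.9, 13.9, 25.5, 24.6 and 54.0 CPM in venular cells, above the 7.51, 6.80, 9.01, 7.09 and 19.6 CPM of the other blood endothelial cells, with Coro1a at 8.67 to 51.8 CPM against 1.88 to 10.3 CPM. Of the lymphatic markers outside the gate, Reln was at 0 and Flt4 at 8.64 CPM or less, while Ccl21a, which is not restricted to lymphatic cells, is described below. The capillary markers Car4, Gpihbp1, Cd36, Rgcc, Kdr, Aqp1 and Fabp4 summed to 1373 to 3557 CPM in venular cells, below the 5132 to 9424 CPM of the other blood endothelial cells. In the venular cells without a Chst4 or Fut7 UMI, described below as negative cells, they summed to 6419, 11789, 13758, 9103 and 6747 CPM from D0 to D300, above the 5564, 5132 and 9016 CPM of the other blood endothelial cells at D0, D10 and D24, so that these markers go against the venular label there. Of the 10 venous genes described below, all outside the gate, 6 (Nr2f2, Nrp2, Vwf, Il6st, Vcam1 and Cd9) were above the other blood endothelial cells in the same negative cells at all 5 ages and 4 (Ephb4, Il1r1, Lifr and Bst1) were not. Vwf was at 1060, 508, 327, 431 and 462 CPM against 280, 51.6, 10.9, 12.1 and 20.6 CPM, and Ephb4 at 50.7, 115, 119, 46.2 and 80.3 CPM against 93.3, 79.3, 90.1, 87.6 and 54.9 CPM. Venular cells were the deeper cells, with a median of 8967, 8963, 9358, 6620 and 10541 UMIs from D0 to D300 against 6657, 6661, 5520, 4043 and 3783.5 UMIs in the other blood endothelial cells. Counts were summed per age and class before any test, and the part of depth in the results below was examined with cells of 4000 to 12000 UMIs alone.

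Venular cells formed 9.33% of the cells with at least 2 Pecam1 UMIs at D0 (exact binomial 95% interval 6.59 to 12.7%), 14.4% at D10 (11.1 to 18.3%), 9.62% at D24 (interval 7.25 to 12.5%), 8.71% in the D56 sample (6.79 to 11%) and 7.88% at D300 (5.81 to 10.4%). The D10 sample was the highest, and its interval did not overlap those of D56 and D300, but 1 sample per age allowed no test between ages. Because a gate on UMIs favours deep cells, each cell was also thinned to 2000 UMIs, which gave 4.15, 8.22, 5.71, 7.47 and 5.52%. D10 remained the highest share, and D56, which had the shallowest venular cells, moved from the fourth place to the second. The intervals of D10 (4.94 to 12.7%), D56 (5.23 to 10.3%) and D300 (3.53 to 8.16%) then overlapped. Among all kept cells, venular cells made up 0.943, 2.90, 2.97, 1.77 and 2.13%, a denominator that the sort sets. Intervals here and below cover counting error only.

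Cells that carried the PNAd transferases were then separated from those that did not. Of the venular cells, 155 held 2 or more UMIs of Chst4 and Fut7 (positive cells), 81 held 0 (negative cells) and 17 held 1. Positive cells made up 37.1% of venular cells at D0 (21.5 to 55.1%) and 70.2, 70.6, 53.8 and 68.9% at D10, D24, D56 and D300. D0 was thus the lowest of the 5 ages, although the interval at D0 overlapped those of D56 (41.0 to 66.3%) and D300 (53.4 to 81.8%). After thinning the order was 0 of 8 cells at D0, 50% of 18 at D10, 44.4% of 18 at D24, 32.4% of 34 in the D56 sample and 30.4% of 23 at D300. The 0 of 8 allows a share of up to 36.9% (exact binomial interval), which overlapped the interval of each later age, so that a difference of D0 from the later ages was not detectable at that depth.

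**Figure D1:**
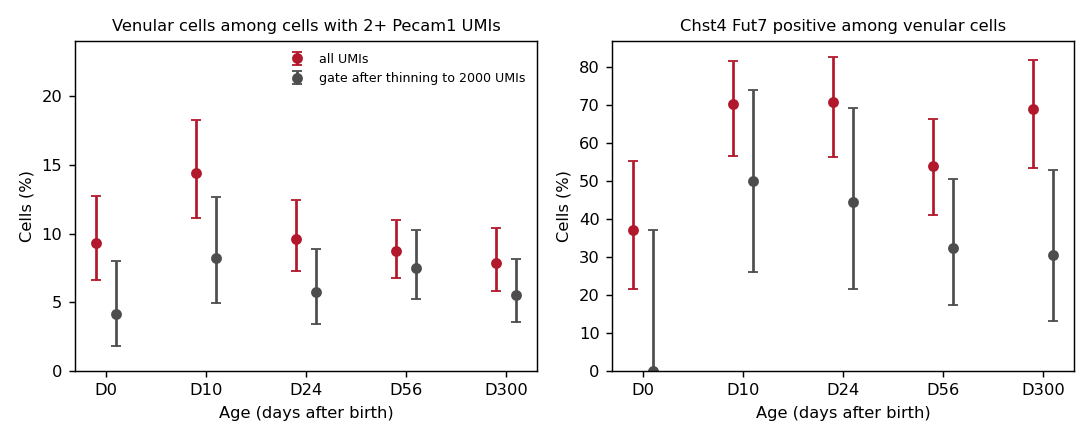
Share of venular cells among cells with at least 2 Pecam1 UMIs (left) and of Chst4 Fut7 positive cells among venular cells (right), in percent of cells against age, with exact binomial 95% intervals. Red points use all UMIs and grey points the gate after thinning each cell to 2000 UMIs. Venular cells were most frequent at D10 (14.4%), and positive cells least frequent at D0 (37.1%).

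To determine what accompanies the gate genes, venular cells were compared with the other blood endothelial cells of the same ages. Summed counts were tested with edgeR's quasi-likelihood test with age as a block, so that the 5 ages stand in for replicates, and Benjamini-Hochberg adjusted p-values under 0.05 were called. The 9 gate genes stayed out of the calls, and a gene that travels with them across cells differs between the classes partly through the choice of cells. Of 8148 genes tested, 953 (11.7%) were higher and 816 (10.0%) lower in venular cells. Scaling by library size alone, without trimmed means, moved the median of all genes from -0.0052 to -0.262 on the log2 scale and gave 509 higher and 1653 lower genes. Among the named and listed genes no direction turned under that scaling, and the calls of B2m, Cxcl1, Cxcl2, H2-Q7, Il1r1, Nfkb2, Nkx2-3, Nrp2, Relb, St3gal4 and Tnfrsf1a were lost. Without D24 the total fell from 1769 to 1062 genes, and with cells of 4000 to 12000 UMIs alone it was 965. Each list below was put together with earlier results of these data known, and its counts are a description.

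Glycam1 was the most strongly elevated gene. Its level in venular cells was 4567, 7439, 39753, 56696 and 100006 CPM from D0 to D300, against 82.6, 72.0, 305, 847 and 806 CPM in the other blood endothelial cells. The classes did not overlap, and the log2 fold change was 6.77 ± 0.23 (SE, 5 ages, adjusted p = 6.9e-09). Madcam1 followed the same division, with 1683, 2458, 4544, 3394 and 3746 CPM against 270, 160, 41.3, 105 and 66.6 CPM (log2 fold change 5.10 ± 0.54, adjusted p = 5.9e-05). Cells without a Pecam1 UMI, which are largely stromal, held Glycam1 at 19.3, 47.2, 283, 484 and 702 CPM, at or below the level of the other blood endothelial cells. The part of free Glycam1 RNA in droplets was not tested, and the venular level was above both of these levels at each age.

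The remaining leaders among the higher genes were Oit1, Bpifb5, Itih3, Pglyrp1, Ehd3, Ubd, Csf3 and Stra6. Ubd measured 994, 1799, 4526, 2628 and 5400 CPM in venular cells and 85.2 to 163 CPM in the other blood endothelial cells (log2 fold change 4.56 ± 0.31, adjusted p = 2.3e-06). Pglyrp1, a secreted protein that binds bacterial peptidoglycan, measured 425 to 2721 CPM against 40.7 to 122 CPM (4.67 ± 0.48, adjusted p = 4.9e-05). Oit1 was at 60.3 to 255 CPM against 1.67 to 4.90 CPM (6.08 ± 0.21, adjusted p = 6.9e-09). For each of these 3 genes the lowest venular age lay above the highest age of the other class. Csf3, the granulocyte growth factor G-CSF, overlapped between the classes because venular cells held only 20.1 CPM at D0 and 3.47 CPM at D10, against 239, 467 and 458 CPM later (4.47 ± 0.45, adjusted p = 4.2e-05). Stra6, the receptor through which cells take up retinol, was at 14.4 to 86.4 CPM against 0 to 4.59 CPM (4.37 ± 0.32, adjusted p = 4.2e-06).

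Of the 7 genes of PNAd synthesis that were tested and not part of the gate, 5 were higher and 0 lower, and the median log2 fold change was 0.79 against -0.01 for all genes tested. Chst2, a second sulfotransferase of the epitope, measured 124, 166, 127, 130 and 212 CPM against 32.6, 46.5, 51.2, 71.4 and 80.3 CPM (1.71 ± 0.15, adjusted p = 1.8e-05). Gcnt1, which starts the core 2 branch on which the sugar is built, was at 37.3 to 130 CPM against 2.45 to 15 CPM (3.63 ± 0.43, adjusted p = 0.00013). Gmds, needed to make the fucose donor, and the sialyltransferases St3gal4 and St3gal6 were higher by 1.58 ± 0.24, 0.61 ± 0.13 and 0.79 ± 0.14. The 3 core proteins shared with other vessels went the opposite way to Glycam1. Podxl fell by 2.26 ± 0.17 on the log2 scale (adjusted p = 5.5e-06), Emcn by 0.99 ± 0.16 (adjusted p = 0.00098) and Cd34 by 0.45 ± 0.13 (adjusted p = 0.025), relative to the other blood endothelial cells. The Cd34 call was lost without D0, without D10 or without D24, and Cd34 stood at 0.05 when lymphatic-gated cells were added to the comparison class.

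Of the 12 adhesion and junction genes tested, 2 were higher and 2 lower, which is close to the shares over all genes tested (11.7% and 10.0%). Icam1, a ligand of leukocyte integrins, measured 994, 830, 998, 940 and 1149 CPM in venular cells and 244 to 644 CPM in the other blood endothelial cells (1.56 ± 0.18, adjusted p = 9.8e-05), and Vcam1 146 to 526 CPM against 86.4 to 323 CPM (1.01 ± 0.16, adjusted p = 0.00078). Both were higher at all 5 ages. The tight junction gene Cldn5 fell by 1.20 ± 0.26 on the log2 scale (adjusted p = 0.0062), with 692, 416, 102, 52.9 and 56.1 CPM against 1218, 604, 245, 404 and 256 CPM, and the adherens junction gene Cdh5 fell by 0.45 ± 0.12 (adjusted p = 0.015), a call lost without D24.

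Of the 15 tested genes of chemokines and their presentation, 5 were higher, all of them chemokines, and 4 lower, namely Ccl19, Cx3cl1, Cxcl12 and Ext1, a glycosyltransferase of heparan sulfate. Ccl21a, the ligand that draws CCR7-bearing cells, measured 3628, 7183, 12947, 20288 and 16583 CPM in venular cells against 354, 1021, 987, 7550 and 2580 CPM (3.06 ± 0.25, adjusted p = 9.2e-06). Its level in cells without a Pecam1 UMI was 1384, 18898, 15728, 27761 and 21118 CPM, and near-identical copies of the gene exist, so the origin and the locus of these reads are uncertain. Cxcl10, Cxcl16, Cxcl1 and Cxcl2 were higher by 1.19 ± 0.22, 0.95 ± 0.19, 0.83 ± 0.18 and 0.90 ± 0.23, but Cxcl2 stood at -0.32 with the gate applied after thinning. Cxcl12 was lower in venular cells, at 46.0, 224, 218, 739 and 335 CPM against 634, 1422, 1340, 1901 and 1160 CPM (-2.08 ± 0.28, adjusted p = 0.00033), while cells without a Pecam1 UMI held 1175 to 6583 CPM. Cx3cl1, the membrane-bound chemokine of inflamed endothelium, was nearly absent from venular cells, with 0, 3.47, 0, 0 and 4.32 CPM against 13.6 to 46.0 CPM (-3.55 ± 0.53, adjusted p = 0.00059). Enpp2, which encodes the lysophospholipid-producing enzyme autotaxin, was higher (546 to 2568 CPM against 103 to 1160 CPM, 1.44 ± 0.21, adjusted p = 0.00043), as was the sphingosine kinase Sphk1 (3.14 ± 0.25, adjusted p = 7.4e-06), whereas the lysophosphatidic acid receptors Lpar4 and Lpar6 were lower.

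Genes of the lymphotoxin receptor and NF-κB list were shifted one way, with 8 of 14 higher, 0 lower and a median of 0.57. Traf1 measured 28.7, 29.5, 147, 140 and 88.5 CPM in venular cells and 11.3, 40.2, 45.1, 29.2 and 19.6 CPM in the other blood endothelial cells (1.80 ± 0.33, adjusted p = 0.0022). Tnfaip3 (1.28 ± 0.20), Birc3 (0.93 ± 0.16), Nfkbia (0.78 ± 0.13), Tnfrsf11a (1.6 ± 0.34), Tnfrsf1a (0.58 ± 0.12), Relb (0.59 ± 0.16) and Nfkb2 (0.56 ± 0.16) made up the rest. Tnfaip3, Birc3 and Nfkbia encode inhibitors and survival factors that NF-κB itself induces. The calls of Relb and Nfkb2, subunits of the non-canonical branch, were lost without D24 or without D56, that of Nfkb2 also without D10, and that of Tnfrsf11a without D56. In positive against negative cells, 0 of 10 tested genes of the list were higher and 2, Nfkb1 and Nfkbia, lower (median -0.12). Over all genes of that comparison, 7.02% were higher and 11.2% lower.

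Vessel identity genes separated the classes. Of the 10 venous genes, 8 were higher and 1, Ephb4, lower, with a median of 0.97. Il6st, the shared receptor chain of the IL-6 family, was at 267 to 431 CPM against 62.0 to 140 CPM (2.03 ± 0.12, adjusted p = 1.1e-06), Vwf, the von Willebrand factor, at 66.9 to 574 CPM against 10.9 to 280 CPM (2.35 ± 0.35, adjusted p = 0.00061), and Nr2f2, the regulator of venous fate, at 60.5 to 198 CPM against 44.6 to 79.5 CPM (0.94 ± 0.18, adjusted p = 0.0024). Of the 13 arterial genes, 0 were higher and 11 lower (median -2.12), among them the gap junction gene Gja4 (-2.84 ± 0.14, adjusted p = 3.3e-07) and the Notch target Hey1 (-2.86 ± 0.25, adjusted p = 1.6e-05). Of 11 capillary genes, 0 were higher and 8 lower (median -1.03). Gpihbp1, which anchors lipoprotein lipase in capillaries, measured 124, 137, 82.4, 18.9 and 32.4 CPM against 614 to 1099 CPM (-3.32 ± 0.39, adjusted p = 0.00012). Esm1, a gene of growing vessel tips, led the lower genes with 0 to 5.20 CPM against 73.9 to 247 CPM (-5.62 ± 0.33, adjusted p = 1.1e-06), and 7 of 13 angiogenic genes were lower.

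Basement membrane genes were lower in venular cells in 9 of 14 cases and higher in 0, with a median of -0.92. Col4a1 measured 416, 624, 463, 310 and 138 CPM against 1012, 1526, 1387, 726 and 502 CPM (-1.19 ± 0.12, adjusted p = 5.5e-05), and Sparcl1 75.6 to 393 CPM against 955 to 1399 CPM (-2.23 ± 0.27, adjusted p = 0.00017). Of 19 transcription factors, 5 were higher and 9 lower. Meox1 (0.77 ± 0.14), Nr2f2, Meox2 (0.88 ± 0.18), Irf8 (0.75 ± 0.15) and Nkx2-3 (0.55 ± 0.15) were higher. Irf8 and Meox2 stood at -0.051 and -0.027 when lymphatic-gated cells were added to the comparison class, and against lymphatic-gated cells alone Irf8 (-1.01), Meox2 (-1.06) and Nr2f2 (-0.95) were lower. Nkx2-3, the homeobox factor required for mucosal addressin expression, measured 91.9, 91.9, 76.5, 100 and 106 CPM against 92.7, 69.7, 61.7, 82.6 and 77.9 CPM, and its call was lost without any 1 of D10, D24, D56 and D300 and under scaling by library size. The flow-responsive factor Klf2 (-1.05 ± 0.18), Sox18 (-1.35 ± 0.13) and Tcf15 (-2.56 ± 0.37) were lower. Antigen presentation genes were higher in 8 of 15 cases and lower in 1, led by the class II invariant chain Cd74 (2.07 ± 0.18, adjusted p = 1.5e-05). Interferon-stimulated genes were lower in 7 of 16 cases and higher in 0, led by Ifit1 (-1.53 ± 0.25) and Irf7 (-1.49 ± 0.16). Stress genes were higher in 1 of 15 cases (Ier3) and lower in 3, and cell cycle genes higher in 0 and lower in 1 of 9 (Rrm2), counts that lie near the 11.7% and 10.0% of all genes tested. Rrm2 stood at -1.32, and at 0.35 with no filter on cells.

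**Figure D2:**
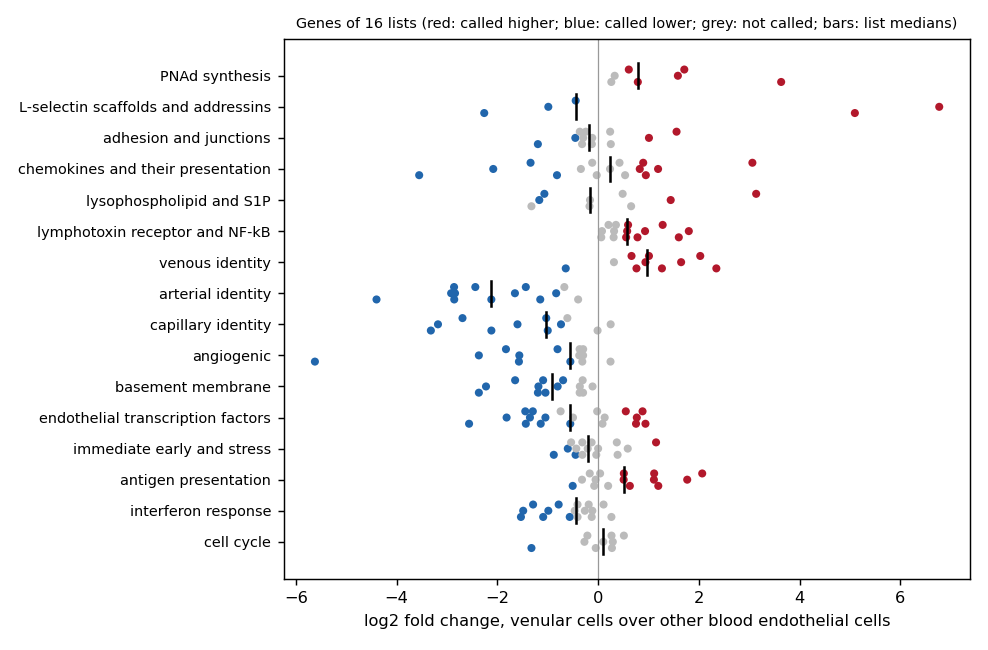
Log2 fold change of venular cells over other blood endothelial cells (x axis) for the tested genes of 16 lists (y axis), 1 point per gene from 5 ages, with red for genes called higher, blue for genes called lower, grey for uncalled genes and black bars for list medians. Venous identity (8 of 10 higher) and the NF-κB list (8 of 14 higher) lie to the right, and arterial identity (11 of 13 lower) lies to the left.

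Measured against lymphatic-gated cells, 793 of 6130 genes (12.9%) were higher and 760 (12.4%) lower in venular cells, and scaling by library size alone gave 524 and 1298 with a shift of the median from -0.027 to -0.240. Glycam1 was again higher (4.48 ± 0.39, adjusted p = 9.4e-06), although the lymphatic-gated cells reached 7521 CPM at D300 against 4567 CPM in venular cells at D0. Serpina1b and Serpina1d, copies of the protease inhibitor α1-antitrypsin that are hard to tell apart by short reads, were at 597 to 3459 CPM and 115 to 1311 CPM in venular cells and at 22.1 to 346 CPM and 5.10 to 133 CPM in lymphatic-gated cells. Pard6g, Sema3d and Tbx1 led the lower genes and were at 0 to 2.87 CPM in venular cells against 100 to 253 CPM. Madcam1 was higher by 3.47 ± 0.22 (adjusted p = 1.1e-06) and Enpp2 by 2.69 ± 0.25 (adjusted p = 1.5e-05).

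The positive and negative cells differed widely. Cells were gated on Chst4 and Fut7, so that negative cells had to reach 3 UMIs through Ackr1, Selp and Sele, and the levels of these genes follow from the choice of cells. Ackr1 measured 761, 1057, 2922, 3547 and 6405 CPM in negative cells and 618, 443, 1176, 1138 and 608 CPM in positive cells, and Selp 483 to 3634 CPM against 92.2 to 382 CPM. Of 2365 genes tested, 166 (7.02%) were higher and 266 (11.2%) lower in positive cells. Positive cells held a median of 10733 UMIs and negative cells 6233. With cells of 4000 to 12000 UMIs alone the counts were 62 and 150. That fit held only D10, D24 and D56, since a class had fewer than 10 cells at D0 and at D300. Median depth there was still 7727, 9570 and 7591 UMIs in positive and 5671, 7165 and 6568 UMIs in negative cells. The fit therefore cannot tell depth apart from the lost ages. The total of 432 was 250 without D24 and 329 to 392 without any other single age.

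Glycam1 was higher in positive than in negative cells, with 9257, 9621, 50662, 80870 and 115863 CPM from D0 to D300 against 535, 24.6, 208, 654 and 883 CPM in negative cells (log2 fold change 6.82 ± 0.59, adjusted p = 2.9e-05). The other blood endothelial cells held 82.6, 72.0, 305, 847 and 806 CPM, so that negative cells lay below them at D10, D24 and D56 and above them at D300. At D0, 1 of the 20 negative cells held 90 of their 95 Glycam1 UMIs, and without that cell, a choice made after its value was seen, the level was 30.6 CPM, below the other class. A Glycam1 UMI was found in 145 of 155 positive cells (93.5%) and in 45 of 81 negative cells (55.6%), against 1176 of 1771 other blood endothelial cells (66.4%), and after thinning in 85.2, 30.9 and 47.6%. Median depths of negative and other cells were 6233 and 4872 UMIs. By age, the cells without a Glycam1 UMI were 16 of 20 negative cells against 189 of 213 other blood endothelial cells at D0, 13 of 15 against 166 of 243 at D10, 3 of 13 against 76 of 338 at D24, 4 of 22 against 128 of 511 at D56, and 0 of 11 against 36 of 466 at D300, so that the pooled order did not hold at each age. Within positive cells the spread was wide. The median share of a cell's UMIs that were Glycam1 was 0.395, 0.0913, 3.57, 1.57 and 10.4% from D0 to D300, the highest cell of each age held 4.04, 4.63, 17.5, 27.2 and 28.9%, and 10 of the 155 cells held none. The 3 richest cells supplied 71.8, 50.9, 28.2, 60.2 and 25.9% of the Glycam1 UMIs of their age, so that the level at D0, D10 and D56 rested on few cells. Of the 17 cells with 1 UMI of Chst4 and Fut7, which are in neither class, 1 at D56 held 2215 Glycam1 UMIs (14.4% of its UMIs) and 1 at D300 held 376 (4.60%).

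**Figure D3:**
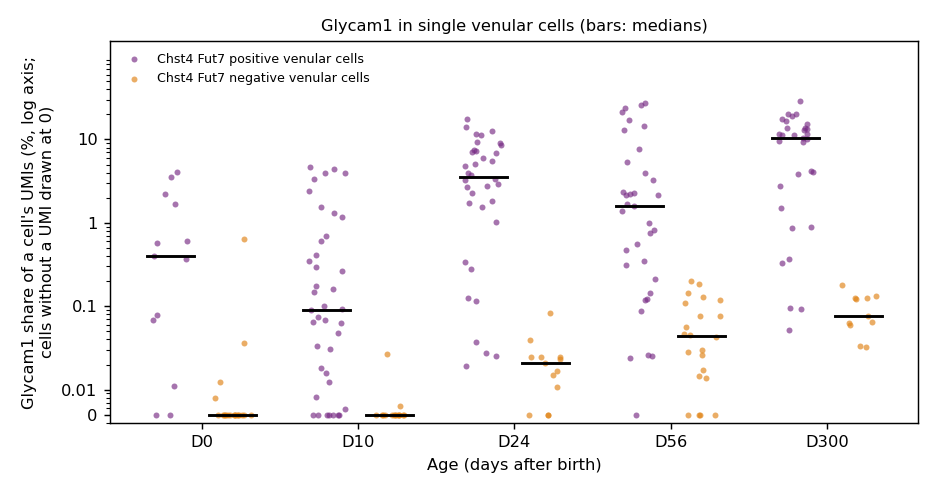
Glycam1 as a percentage of the UMIs of single venular cells (log axis, cells without a UMI drawn at 0) by age, for Chst4 Fut7 positive cells (purple) and negative cells (orange), with black bars for medians. The medians of positive cells run from 0.0913% at D10 to 10.4% at D300, and negative cells stay at 0.640% or less.

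Madcam1 measured 2759, 2895, 5725, 4401 and 4055 CPM in positive cells and 665, 950, 39.6, 1354 and 1847 CPM in negative cells (2.28 ± 0.54, adjusted p = 0.013), and at 4 of the 5 ages negative cells exceeded the highest level of the other blood endothelial cells (270 CPM). Few negative cells carried this, since 41 of 81 held no Madcam1 UMI, against 24 of 155 positive cells, and the 3 richest negative cells supplied 76.3, 69.0, 58.5 and 62.0% of the UMIs at D0, D10, D56 and D300. Ubd (4.85 ± 0.32, adjusted p = 6.4e-06), Pglyrp1 (3.69 ± 0.45), Susd2 (3.29 ± 0.38), Oit1 (3.15 ± 0.45), the secreted chaperone Clu (3.10 ± 0.31), Dclk1 (3.10 ± 0.36), Cd74 (3.03 ± 0.44) and the PNAd enzyme Chst2 (2.56 ± 0.28) were the other leaders, each higher at all 5 ages. Pf4, best known as a platelet chemokine, measured 153, 85.5, 163, 143 and 328 CPM in positive cells and 0 to 20.1 CPM in negative cells (4.80 ± 0.46, adjusted p = 4.1e-05). The other platelet genes did not move with it, since Ppbp was at 0 in all venular cells, Gp9 at 0 in positive cells, and Itga2b at 0 to 29.3 CPM in positive and 7.69 to 20.1 CPM in negative cells.

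Negative cells were led by Cytl1, a secreted cytokine-like protein, with 95.8, 369, 287, 362 and 944 CPM against 0, 0, 0, 2.93 and 2.52 CPM in positive cells (-7.94 ± 0.39, adjusted p = 5.9e-07). Il6 measured 73.3, 672, 574, 1654 and 2831 CPM against 9 to 93.6 CPM (-4.97 ± 0.44, adjusted p = 3.3e-05), beside 46.1 to 792 CPM in cells without a Pecam1 UMI. The fatty acid carrier Fabp4 (-4.62 ± 0.42), the scavenger receptor Cd36 (-4.22 ± 0.30), elastin (Eln, -4.44 ± 0.67), Pgm5, Rasl11a, Tm6sf1, Cd59a and C1qtnf9 followed. Eln reached 11643 CPM at D0 and was at 60.2 CPM at D300 in negative cells, against 35.3 to 280 CPM in positive cells. Vwf was at 1060, 508, 327, 431 and 462 CPM in negative cells and 20.2 to 76.5 CPM in positive cells (-3.37 ± 0.26, adjusted p = 9.8e-06).

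By list, 4 of 7 venous genes (Cd9, Nrp2, Vcam1 and Vwf) and 6 of 9 capillary genes were lower in positive cells and 0 higher, with medians of -0.94 and -1.02 against 0.02 for all genes tested. Of the lower capillary genes, Rgcc stood at 0.12 with cells of 4000 to 12000 UMIs alone, a fit of D10, D24 and D56. Vcam1 measured 186, 287, 1139, 1354 and 1486 CPM in negative cells and 108 to 284 CPM in positive cells (-2.14 ± 0.31, adjusted p = 0.00072), and Icam1 1114 to 2169 CPM against 741 to 1030 CPM (-0.88 ± 0.15, adjusted p = 0.002). Of 10 adhesion genes, 5 were lower and 1, Jam3, higher, and the call of Cldn5 among the lower genes was lost without D0, without D10 or without D56. Stress genes were lower in positive cells in 8 of 15 cases and higher in 0 (median -0.74), with Junb at 2368 to 4217 CPM in negative and 1056 to 2394 CPM in positive cells (-0.82 ± 0.15, adjusted p = 0.0034). Antigen presentation genes were higher in positive cells in 6 of 12 cases and lower in 0 (median 0.95), namely Cd74, B2m, H2-K1, H2-Ab1, H2-D1 and Psmb8. The class I genes H2-K1 and H2-D1 share sequence, and the calls of H2-D1 and Psmb8 were lost without D0, without D10 or without D24, that of H2-D1 also without D56, and that of H2-Ab1 without D24. The 6 blood cell genes summed to 38.2, 15.7, 30.0, 32.2 and 60.6 CPM in positive and 16.9, 8.19, 9.91, 7.69 and 0 CPM in negative cells, with Ptprc, Cd3e and Cd52 at 0 in both, and their part in the difference was not tested. The autotaxin gene Enpp2 was higher in positive cells by 2.08 ± 0.22 (adjusted p = 9.2e-05). The perivascular list summed to 84.5 to 1057 CPM in negative and 17.7 to 147 CPM in positive cells, with Cspg4 at 0 in 4 of 5 ages of the former. The fibroblastic list summed to 2063, 3605, 644, 2324 and 1104 CPM in negative and 1676, 706, 671, 2168 and 939 CPM in positive cells, and at D10 the negative cells exceeded the 2088 CPM of the other blood endothelial cells. The part of both lists in the difference was not tested.

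**Figure D4:**
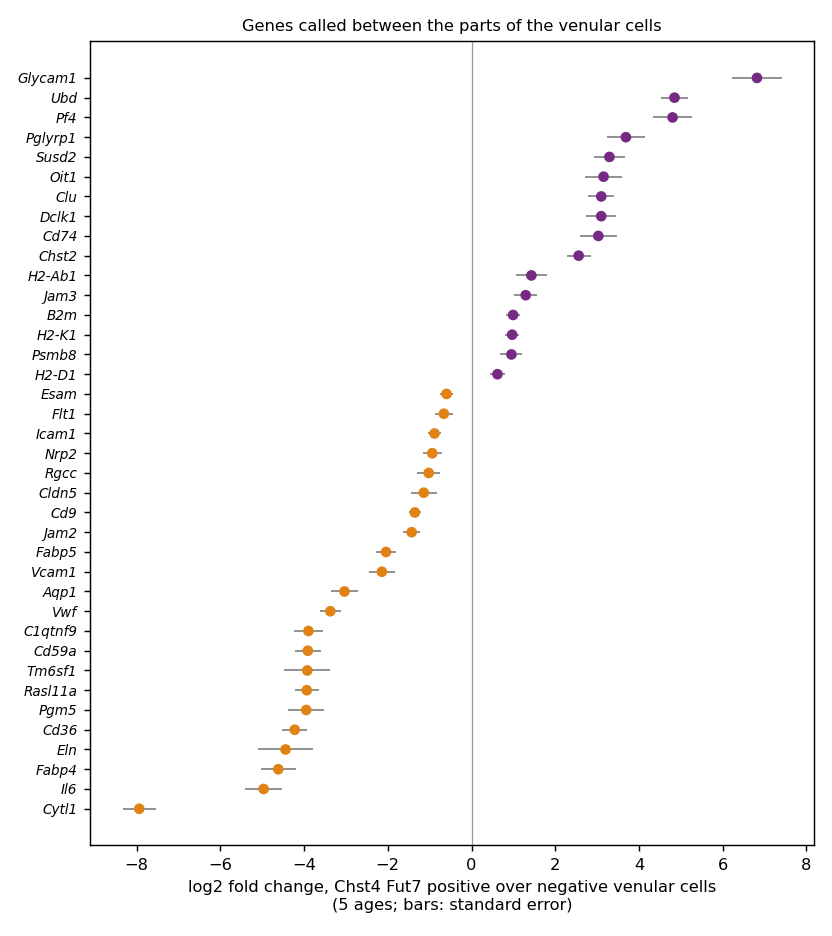
Log2 fold change of Chst4 Fut7 positive over negative venular cells (x axis, points with standard errors over 5 ages) for the named genes and the called genes of the adhesion, venous, capillary and antigen presentation lists (y axis). Glycam1 (6.82) and Ubd (4.85) lead on the positive side and Cytl1 (-7.94) and Il6 (-4.97) on the negative side.

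The course of venular cells over age was examined as a slope of log2 level on log2 of the day plus 1, fitted over the 5 ages with 3 residual degrees of freedom. Of 5959 genes tested, 63 (1.06%) rose and 58 (0.973%) fell. The calls fell most without D0, to 10 genes, against 42 without D300, 56 without D10, 67 without D56 and 107 without D24. Leaving out an age also leaves fewer residual degrees of freedom, so these counts do not show which age carried the slopes. Of the 40 named or listed genes, 35 could be tested without D0, and 1 of these, Tmem158, kept its call. Scaling by library size alone gave 35 rising and 88 falling genes.

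Glycam1 rose by 0.64 ± 0.09 log2 units per doubling of the day plus 1 (adjusted p = 0.012), and the slope was 0.74 without D0 (adjusted p = 0.12) and 0.58 with the gate applied after thinning (adjusted p = 0.11). The thinned gate left 8 venular cells at D0, under the limit of 10, so that fit held no D0 either. It cannot tell thinning apart from the loss of D0. The Glycam1 rise was also called in positive cells alone (0.56, adjusted p = 0.045) and was 0.12 in negative cells (adjusted p = 0.71). Glycam1 was also higher at D300 than at D0 in the other blood endothelial cells and in cells without a Pecam1 UMI. Its slope was not called different between venular and other blood endothelial cells. Gcnt1, also an enzyme of PNAd synthesis, rose from 37.3 to 130 CPM (0.30 ± 0.06, adjusted p = 0.026, lost without any 1 of D0, D10, D56 and D300). Antigen presentation genes rose in 5 of 14 cases and fell in 0. H2-K1 measured 1583, 3527, 4226, 3814 and 5670 CPM (0.27 ± 0.04, adjusted p = 0.014), and B2m, H2-D1, H2-Q7 and H2-Ab1 were the others, all lost without D0. Inmt, Reg3g, Tc2n, C4b, Mt1, Cfb, Cd14, Ces2e and Thsd7a led the rising genes beside Glycam1. Cfb, a complement factor, measured 48.8, 38.1, 249, 431 and 585 CPM, against 8.97 to 180 CPM in cells without a Pecam1 UMI, and Inmt 0, 8.67, 3.92, 94.5 and 127 CPM, against 11.3 to 2451 CPM in those cells.

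The imprinted gene Mest led the falling genes, with 1083, 194, 15.7, 5.67 and 0 CPM (-1.12 ± 0.11, adjusted p = 0.0022), followed by Cthrc1 (259 to 0 CPM, -1.10 ± 0.08), Eln (6072 to 41.0 CPM, -0.89 ± 0.10), Mdk, Tmem158, Mfap4, Nrep, Meg3, Itm2a and Ptn. Mest had a like course in the other blood endothelial cells (1616 to 13.7 CPM) and in cells without a Pecam1 UMI (1531 to 15.1 CPM). Of the vessel genes, Vwf fell from 574 to 66.9 CPM (-0.30 ± 0.06, adjusted p = 0.041) and Cldn5 from 692 to 56.1 CPM (-0.45 ± 0.08, adjusted p = 0.024). Both were also lower at D300 than at D0 in the other blood endothelial cells, and neither slope was called different between the classes. Within positive and within negative cells alone the slopes were -0.096 and -0.15 for Vwf (adjusted p = 0.61 and 0.29), -0.30 and -0.55 for Cldn5 (adjusted p = 0.11 and 0.071), and -0.31 and -0.98 for Eln (adjusted p = 0.083 and 0.024). The part of the mix of positive and negative cells in these slopes was not tested. Mest, Cthrc1 and Tmem158 kept their call under every alternative that tested them, but Mest and Cthrc1 were below the filter on low genes without D0.

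Each age was also set beside D56 without a test, counting genes that differed at least 2-fold with 50 CPM in the higher age. The study's methods cite an earlier publication for the D56 data, so at D56 study and library cannot be told apart from age. This holds for the slopes too. At D0, 571 of 3317 genes (17.2%) were higher and 266 (8.02%) lower than at D56, at D10 468 of 3257 (14.4%) and 207 (6.36%), at D24 128 of 2969 (4.31%) and 115 (3.87%), and at D300 64 of 2744 (2.33%) and 181 (6.60%). Both directions together came to 837, 675, 243 and 245 genes. With TMM scaling in place of library size the split between higher and lower genes was 317 and 398 at D0, 186 and 330 at D10, 90 and 167 at D24 and 103 and 169 at D300, so that the excess of higher genes at D0, D10 and D24 did not hold under both scalings. Cell cycle genes led at D10, with Ube2c at 159 CPM, Cdc20 at 107 CPM and Birc5 at 127 CPM against 1.89, 1.89 and 0 CPM at D56. Cells with 2 or more UMIs over 6 cycling genes made up 25.7, 22.8, 13.7, 3.08 and 2.22% of venular cells from D0 to D300, and 2.86, 8.77, 1.96, 0 and 2.22% after thinning, so the excess at D0 over D10 was not seen at matched depth. Such cells made up 20.2, 21.0, 4.14, 0.587 and 0.215% of other blood endothelial cells and 22.0, 17.9, 4.96, 1.18 and 1.67% of lymphatic-gated cells. After thinning the other blood endothelial cells had 9.39, 10.7, 1.48, 0.201 and 0.220%. The growth-associated genes Mest, Cthrc1, H19 and Mdk led at D0.

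Hamp, which encodes the iron hormone hepcidin, stood far below its D56 level at both D0 and D300. Hamp2, which lies near Hamp on chromosome 7, ranked 2 among the genes higher at D24 than at D56. The split of reads between Hamp and Hamp2 was not tested, and the values below are of Hamp alone. Venular cells held 0, 445, 1020, 1051 and 60.5 CPM, against 0 to 26.6 CPM in the other blood endothelial cells and 0.244 to 3.99 CPM in cells without a Pecam1 UMI. At D0 there was no Hamp UMI among 348148, a log2 ratio to D56 of -6.93 or lower with a floor of 3 UMIs, and at D300 the log2 ratio was -4.12 (counting interval -4.72 to -3.57). The transcripts sat in few cells, since 187 of 253 venular cells held none, 34 held 10 or more, and the 3 richest cells at D56 supplied 74.6% of the UMIs. Of the 34 cells, 30 were positive cells. Hamp was called higher in venular than in other blood endothelial cells (5.44 ± 0.31, adjusted p = 1.2e-06) and in positive than in negative cells (4.78 ± 0.60, adjusted p = 0.00044). Csf3 went from 20.1 and 3.47 CPM at D0 and D10 to 239 to 467 CPM later, and 22 of 253 cells held 10 or more UMIs. Reg3g, an antibacterial lectin of the gut, was at 175 CPM at D300 and 32.1 CPM at D56 (log2 ratio 2.44), with 27 of 45 cells at D300 holding none.

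Several of the genes that differed most from D56 moved in the same way outside the venular cells. Gsn stood at 112, 88.4, 251, 2071 and 415 CPM in venular cells and at 2119 to 18093 CPM in cells without a Pecam1 UMI, also highest at D56, and Dcn, Ccl19, Gpx3, Serping1, Ccl7, Igfbp6 and Mt2 were at 809 to 15836 CPM in those cells at D56. The digestive enzyme genes Ctrb1, Clps and Try4 were present at D0 and D24 in venular cells (379, 135 and 20.1 CPM at D0 and 296, 139 and 145 CPM at D24), at 5.20 CPM or less at D10 and at 0 at D56 and D300. They followed the same ages in cells without a Pecam1 UMI, where Ctrb1 measured 2430, 1.85, 253, 0 and 0 CPM. Cyth1 was at 276, 291 and 337 CPM at the younger ages and at 15.1 and 19.4 CPM at D56 and D300, with 130 to 165 and 9.11 to 9.47 CPM in cells without a Pecam1 UMI. The 4 haemoglobin genes led at D300, where 1 venular cell held 2606 of the 2632 haemoglobin UMIs (99.0%), and in the other blood endothelial cells the highest cell supplied 69.7 to 99.9% of these UMIs at D0 to D56. The part of RNA from other cells or of the library in these differences was not tested.

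**Figure D5:**
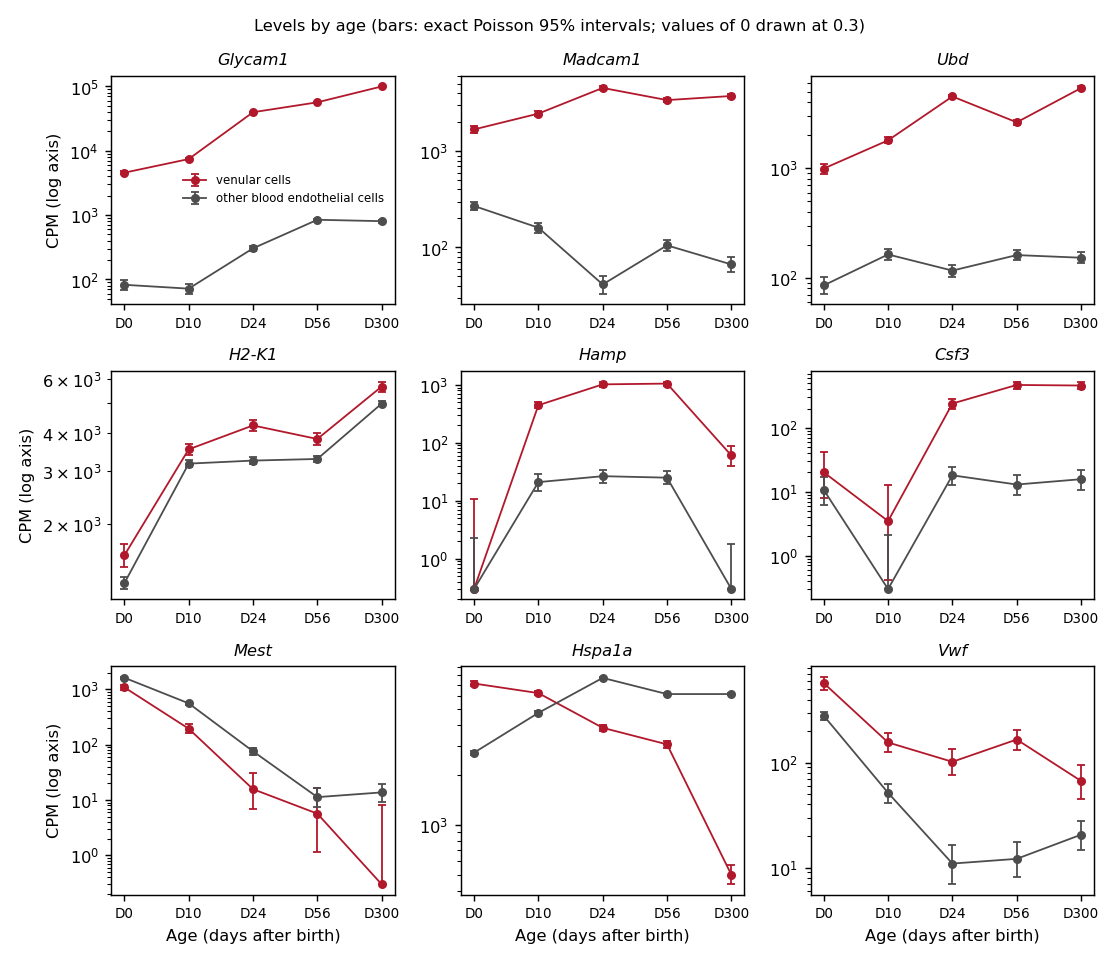
CPM (log axis) by age (categories, not to scale) of 9 genes in venular cells (red) and other blood endothelial cells (grey), 1 sample per age, with exact Poisson 95% intervals and values of 0 drawn at 0.3. Glycam1 reaches 100006 CPM in venular cells at D300, Hamp is at 0 at D0 and at 1051 CPM at D56, and Hspa1a runs from 7155 to 499 CPM in venular cells and from 2730 to 6178 CPM between D0 and D300 in the other class.

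Slopes on age were compared between venular and other blood endothelial cells in 1 fit. Of 8148 genes, 56 (0.687%) had a higher and 52 (0.638%) a lower slope in venular cells, and the total of 108 was 21 without D300 and 27 without D0. It includes the 4 haemoglobin genes, whose UMIs sat mostly in single cells of both classes. Scaling by library size alone gave 39 and 97. Of the 34 named or listed genes called, only 3 heat shock genes kept their call under every alternative run. Hspa1a measured 7155, 6260, 3861, 3065 and 499 CPM in venular cells and 2730, 4752, 7737, 6175 and 6178 CPM in the other blood endothelial cells (difference of slopes -0.55 ± 0.06, adjusted p = 0.0006). Hspb1 (-0.49 ± 0.05, adjusted p = 0.00035) and Hspa1b (-0.52 ± 0.08, adjusted p = 0.005) were the others and had the same sign, while Dnajb1 was not called. Hspa1a and Hspa1b are near-identical, so their split is uncertain. In all, 6 of 15 stress genes had a lower slope in venular cells and 0 a higher one. Madcam1 had a higher slope in venular cells (0.44 ± 0.10, adjusted p = 0.041), as it was at 1683 to 4544 CPM there and measured 270 CPM at D0 and 66.6 CPM at D300 in the other class, and this call was lost without D0, without D56 or without D300.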

How the data were processed

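Cells of mesenteric lymph nodes were measured by droplet 3′ single-cell RNA sequencing at 5 ages. Per the labels and the study's methods, the authors made UMI counts per gene and cell with Cell Ranger 2.0.0 and STAR on mm10 and used Seurat 2.3.3. The deposited counts (27998 genes, 17692 cells) are not normalized, and all columns were used.

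Cells were filtered and gated by the rules stated above and summed per age and class. Sums of at least 10 cells were tested in R 4.3.3 with edgeR 4.0.16 (TMM, quasi-likelihood, Benjamini-Hochberg adjustment). In class comparisons age was a block, and p-values measure the spread between ages. The 5 ages are 1 sample each, so single ages were not tested. Venular cells summed to between 348148 and 576952 UMIs per age. CPM intervals are exact Poisson and shares exact binomial, at the 95% level. Python 3.11.15, numpy 2.4.6, scipy 1.17.1 and pandas 2.3.3 were used.

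Members and gene lists were chosen with earlier results of these data known. Named genes were the 10 largest called changes in each direction with the same sign at every age and a mean of at least 50 CPM in the higher class (for slopes, 50 CPM at 1 age), the 5 largest ratios to D56 in each direction with 100 CPM, and all genes of the 16 lists, leaving out ribosomal, mitochondrial and predicted genes. Pf4 and Hamp between classes, and Csf3 and Reg3g per cell, were chosen after their values were seen. No doublet caller was run, and cells with RNA of other types were removed as an alternative. DESeq2 1.42.0, other scalings, gates, filters and depths and leaving out each age were alternatives. Tested on simulated data with 200 changed genes, the fit recovered 100% between venular and other blood endothelial cells. There 218 genes were called, of which 200 were changed. Between positive and negative cells it recovered 96% (198 called, 192 of them changed). For slopes the share was 87.5% (181 called, 175 changed), and for slope differences 48% (99 called, 96 changed). Recovery in the measured data, at their sizes of change and their spread between ages, was not tested. Promoters came from RefSeq.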

Additional observations from a re-analysis of the deposited data

Results flagged for a closer look

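The slope on log2 of the day plus 1 differed between venular and other blood endothelial cells for 34 named or listed genes, by the test of the difference in slopes with edgeR. Values in parentheses are the slope in venular cells minus that in the other blood endothelial cells. The 4 haemoglobin genes had the greatest values, Hbb-bt (6.15), Hba-a1 (5.97), Hba-a2 (5.68) and Hbb-bs (4.99). At D300, 1 venular cell held 2606 of 2632 haemoglobin UMIs, and no other venular cell held 10 or more at any age. Among the other blood endothelial cells, single cells held up to 5625, 5479, 6075 and 11135 haemoglobin UMIs at D0, D10, D24 and D56, and up to 4 at D300.

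Slopes were higher in venular cells for Cytl1 (1.06), Thsd7a (0.72), Birc5 (0.69), Dhh (0.64), AU021092 (0.53), Calml4 (0.52), Cxcl12 (0.30), Fbln5 (0.24), Gcnt1 (0.51), H2-Ab1 (0.20), Lamb2 (0.36) and Madcam1 (0.44). Slopes were lower in venular cells for Rgs4 (-0.76), Cyp4b1 (-0.68), Cdh13 (-0.55), Hspa1a (-0.55), Rrad (-0.53), Ltb (-0.52), Hspa1b (-0.52), Tspan14 (-0.50), Rnf122 (-0.49), Hspb1 (-0.49), Ackr3 (-0.44), Atf3 (-0.22), Cd36 (-0.34), Id1 (-0.30), Jun (-0.18), Jund (-0.18), Rgcc (-0.44) and Tcf15 (-0.44). Only 9 of the 34 genes kept their call without D0 and 11 without D300, and Hspa1a, Hspa1b and Hspb1 kept theirs without every single age.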

How the results depend on the processing

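No paired analysis was possible because the columns carry no library or replicate number that pairs libraries across ages, whereas classes were compared within ages through the age block. Over 381 named or listed gene results, 5249 alternatives were run, of which 4486 kept the call and the direction, 748 kept the direction and lost the call, and 15 reversed. The cause of the changes below was not tested. The planned removal of cells with any of a few UMIs of another type left too few venular cells, so that none of the 5 fits was run with it, and the fit of positive against negative cells was not run on the thinned gate, which left 1 age. The looser removal, the depth band of 4000 to 12000 UMIs and the slopes within positive or negative cells were chosen after seeing the data. In the depth band the fit of positive against negative cells held only D10, D24 and D56. The thinned gate left 8 venular cells at D0, under the limit of 10, so its fits held no D0.

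The count of called genes between venular and other blood endothelial cells (1769) ranged from 1062 to 1766 without single ages, and was 1015 with the gate on thinned cells, 965 in the depth band and 861 with no age block. Against lymphatic-gated cells (1553) it ranged from 1147 to 1598 without single ages and was 2345 with no filter on genes, 587 with the thinned gate and 961 in the depth band. Between positive and negative cells (432) it ranged from 250 to 392, and was 733 with no filter on genes, 212 in the depth band and 214 with no age block. For slopes (121) it ranged from 10 to 107 without single ages, and was 415 with no filter on genes, 14 with the thinned gate, 222 on the rank of age and 23 in positive cells. For differences in slope (108) it ranged from 21 to 105, and was 274 with no filter on genes, 16 with the thinned gate and 53 in the depth band. DESeq2 gave 1234, 1155, 326, 178 and 74 genes for the 5 comparisons in this order.

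Shares of venular cells from D0 to D300 were 0.943, 2.90, 2.97, 1.77 and 2.13% of all kept cells. At D0, D10, D24 and D56 they were 14.1, 19.0, 13.1 and 11.3% of Pecam1 cells with few lymphatic UMIs. With thinning they were 4.15, 8.22, 5.71 and 5.52% at D0, D10, D24 and D300. With the strict removal of cells with markers of another type they were 0, 4.08, 5.00 and 2.03% at D0, D24, D56 and D300, and with no filter on cells 12.6% at D56. Shares of positive cells were 0, 50, 44.4, 32.4 and 30.4% with thinning, and 50, 50, 20 and 33.3% at D10, D24, D56 and D300 with the strict removal. With a limit of 20 CPM, the genes past a 2-fold difference from D56 numbered 1901, 1502, 822 and 810 at D0, D10, D24 and D300, and with the thinned gate 1271, 675 and 565 at D0, D24 and D300.

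Reversed were Cd34 (0.05), Irf8 (-0.051) and Meox2 (-0.027) against all other Pecam1 cells, Cxcl2 (-0.32) with the thinned gate, Rrm2 (0.35) with no filter on cells, Ifi47 (-0.14) against lymphatic-gated cells with the thinned gate and Rgcc (0.12) between positive and negative cells in the depth band. Slopes reversed for Aplnr (0.021) and H2-Ab1 (-0.0076) with the thinned gate and for Fbln5 (0.074) and Mgp (0.019) in positive cells. Differences in slope reversed for H2-Ab1 (-0.13) with the thinned gate and without D300 for 3 haemoglobin genes, whose values over the fits without single ages ran from -0.029 to 7.44 for Hba-a1, from -0.069 to 7.145 for Hba-a2 and from -0.14 to 6.453 for Hbb-bt.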
